A study of Homo sapiens with 6 samples.

Results

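The genes described here are 33 cytokines, growth factors and related proteins that senescent cells are known to release, examined in human melanoma cells treated with siRNA against PIR, the gene of the nuclear protein pirin, a known partner of the NF-kB co-regulator BCL3. The members came from a list of gene symbols. Each was read from the brightest probe set annotated with that symbol alone, a probe set being a group of short oligonucleotides against one transcript. Of the 33 genes, 31 had such a probe set, out of 19775 genes on the array. The colony-stimulating factor CSF2 and the EGF receptor ligand AREG had none and were not analysed here. The list names factors by their known association with senescence, and its use does not state that the cells were senescent.

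All RNA came from WM-266.4, an established line of metastatic melanoma, collected 72 h after a transfection in medium without serum. The siPIR group received 200 pmol of a mixture of 4 siRNA duplexes against PIR, the siCTR group the same amount of a mixture of 4 non-targeting duplexes, and the NO group went through the procedure with the Oligofectamine reagent and no oligonucleotide. For each group, RNA of 3 extractions was combined into 1 pool and measured on 2 Affymetrix HG-U133 Plus 2 arrays. The 2 arrays repeat the hybridisation of 1 pool, so n = 1 per group, there is no biological replicate and no p-value is given. The spread between repeat arrays shows hybridisation error only, and having 6 arrays limits the precision.

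Cells that leave the cell cycle for good can secrete a mixture of inflammatory cytokines, chemokines, growth factors, proteases and their inhibitors, the senescence-associated secretory phenotype. Many of its genes are known targets of NF-kB and C/EBP beta, and IL1A, IL6 and CXCL8 are among its best studied components. Melanoma cells are also known to make several of these factors without senescence, among them CXCL8, which signals through CXCR1 and CXCR2. The IGF-binding proteins, the largest family on the list, bind insulin-like growth factors outside the cell and alter their access to receptors.

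The knock-down was seen at PIR itself, at 392 and 382 signal units on the siPIR arrays against 13180 to 14153 on the other 4. Across the 13053 genes with a pool mean above 70.2 units, the median of all values, repeat arrays correlated at r of 0.975 to 0.982 and arrays of different pools at 0.947 to 0.975. The points of these correlations are genes and not independent replicates. As a sign of RNA quality, ACTB signal at the 3' end over that at the 5' end was 1.13 on both siPIR arrays and 1.23 to 1.27 on the others. All 9 melanocyte lineage markers with a probe set were above 70.2 units and 0 were called different in any comparison, by the rule given below. Of all genes, 2.42% were called higher and 2.78% lower in siPIR against siCTR, and 2.38% and 3.57% against NO. Between siCTR and NO the shares were 0.657% and 1.58%. With 9 melanocyte markers, 0 calls cannot be told apart from these shares of all genes. Of 10 leukocyte markers 6 were near background in every pool, among them PTPRC, CD3E and LYZ. Of the other 4, CD14 was above background in all pools and called higher in siPIR than in NO (274.9 and 289.9 units against 61.4 and 122.9, a log2 difference of 1.64, and 0.88 against siCTR), and ITGAM was called lower than in NO (-1.33). CD2, above background in NO alone, was called lower in siCTR than in NO (-1.64). The summed leukocyte list was 613 to 654 units in siPIR, 354 to 510 in siCTR and 427 to 516 in NO. Of 8 fibroblast markers 5 were near background, among them PDGFRA, PDGFRB and DCN. The summed fibroblast list was higher in siPIR (23109 to 24052 units) than in siCTR (14658 to 15861) and NO (12712 to 12815), nearly all of it COL1A2. The part of these differences in the results below was not tested.

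Below, near background means that every pool mean was under 70.2 units. Differences are in log2(signal + 5.4), so 1 is a 2-fold difference, and a range given with a difference spans the 4 array pairs. A gene was called higher or lower when the difference was at least 1 in size, the repeat arrays of the pools did not overlap, and at least 1 pool mean was above 70.2. The siPIR pool enters both of its comparisons, and each control pool enters 2 comparisons, so the 3 sets of differences are not independent.

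Of the 31 genes, 15 were above background in all 3 pools, 4 in 1 pool (IL1B, CCL2, CCL5 and HGF) and 12 in none. Thus 19 of the 31 had a pool mean above background, beside 13053 of all 19775 genes. The 15 were LIF, CXCL1, CXCL8, CCL20, MIF, CSF1, ICAM1, all 6 IGF-binding proteins, FGF2 and ANG. The 12 near background were IL1A, IL6, IL7, IL11, IL15, TNF, CXCL2, CXCL3, TNFRSF11B, EREG, MMP3 and MMP10. Of the upstream cytokines of the programme, IL1A, IL6 and TNF were thus near background on the probe sets used. At the edge of this threshold, IL6 had a highest pool mean of 69.8 units and IL11 of 59.4, while CCL5 had 70.8 and HGF 77.9. A gene that passes through 1 pool alone had to differ between pools, which bears on the values of HGF, CCL2 and IL1B.

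**Figure D1:**
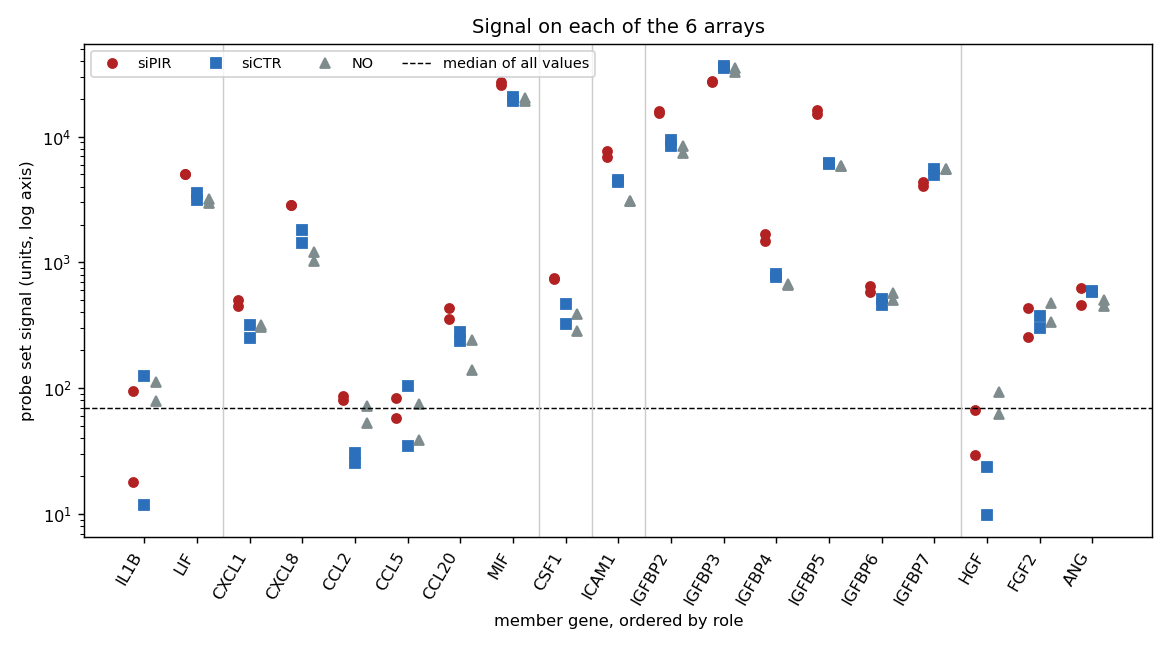
Probe set signal (vertical axis, units, log scale) of the 19 genes above background in at least 1 pool, with 1 point per array for siPIR (circles), siCTR (squares) and NO (triangles); the dashed line is the median of all values (70.2), and grey lines part the roles. Both siPIR points lie above all 4 control points for LIF, CXCL1, CXCL8, CCL2, CCL20, MIF, CSF1, ICAM1, IGFBP2, IGFBP4, IGFBP5 and IGFBP6 and below them for IGFBP3 and IGFBP7, while the arrays of IL1B and CCL5 scatter widely within a pool.

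Against siCTR, 4 of the 31 genes were called higher (CCL2, HGF, IGFBP4 and IGFBP5) and 0 lower. Over all 19775 genes, 2.42% were called higher and 2.78% lower in this comparison. CCL2 passed the background rule through siPIR alone, the pool where it was highest, and HGF through NO alone, a pool outside this comparison. With the rule set on the mean over the 6 arrays, 2 genes were called higher, IGFBP4 and IGFBP5, and 2.50% of the 12111 genes above background by that mean. Against NO, 6 were called higher (CXCL8, CCL20, CSF1, ICAM1, IGFBP4 and IGFBP5) and 0 lower, where 2.38% and 3.57% of all genes were. IGFBP4 and IGFBP5 were called higher against both controls and 0 genes lower, with 0.971% and 2.11% of all genes for the same rules. The median difference over the 31 genes was 0.40 against each control, and over all genes 0.04 against siCTR and 0.02 against NO. The difference was above 0 for 23 of 31 genes against siCTR (53.0% of all genes) and for 20 of 31 against NO (51.3%). Counting arrays that did not overlap, whatever the size, 14 genes were higher and 3 lower against siCTR (30.0% and 24.8% of all genes) and 13 were higher and 4 lower against NO (30.4% and 27.9%). In bulk RNA, a change in the number of cells that make a factor and in its RNA per cell cannot be told apart.

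The counts depended on the size threshold. With 1.5-fold in place of 2-fold, 11 genes were called higher against siCTR (7.02% of all genes) and 9 against both controls (4.14%). Without 1 array, the median against siCTR reached 0.72 (without siCTR replicate 1) and 0.61 (without siPIR replicate 2), and that against NO was 0.24 without NO replicate 2.

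**Figure D2:**
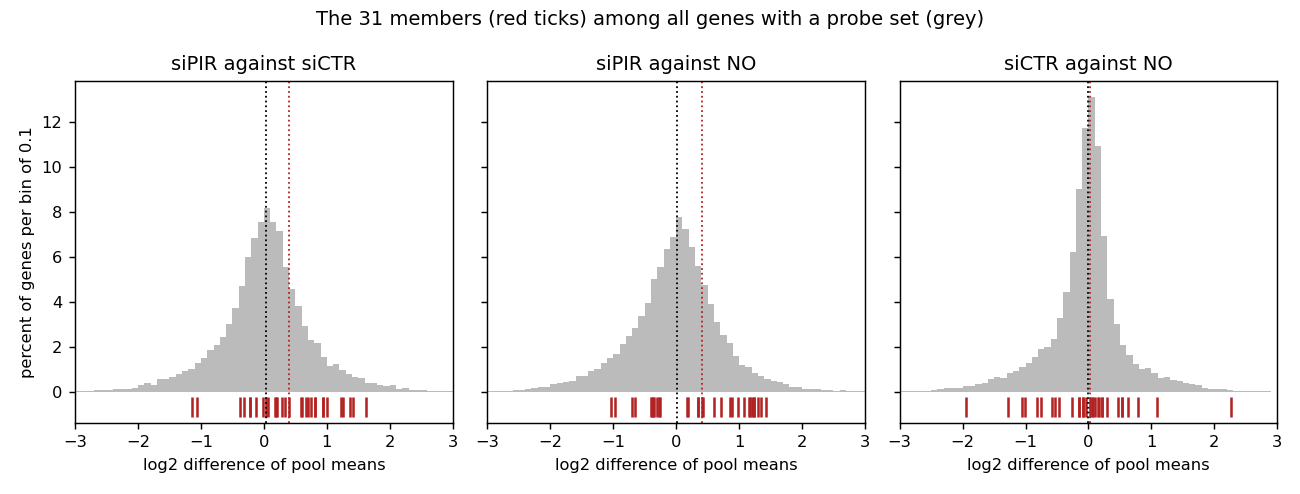
Distribution of the log2 differences (horizontal axis) of all 19775 genes (grey bars, percent of genes per bin of 0.1) with the 31 genes of the list as red ticks below, for each pair of pools; dotted lines are the medians of all genes (black) and of the list (red), and 7, 6 and 3 of all genes lie outside the axis. The medians of the list are 0.40, 0.40 and 0.02, those of all genes 0.04, 0.02 and 0.00 to 2 decimals.

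The IGF-binding proteins were above background in all pools. On the probe sets used, the siPIR arrays of all 6 did not overlap either control, with 4 genes higher and 2 lower. Of all genes, 30.0% were higher and 24.8% lower without overlap against siCTR, and 30.4% and 27.9% against NO. IGFBP5, which is bound to the extracellular matrix in many tissues, had 16389 and 15060.2 signal units in siPIR, 6042 and 6126 in siCTR and 5874 and 5833 in NO. The siPIR arrays were high and the 4 control arrays lay close together. The log2 difference was 1.37 against siCTR (1.30 to 1.44) and 1.42 against NO (1.36 to 1.49), or 2.58-fold and 2.68-fold. All 6 probe sets of IGFBP5 were called higher in both comparisons, from 1.23 to 1.70 against siCTR and from 1.12 to 1.85 against NO.

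IGFBP4, an inhibitory binding protein that is cleaved by the protease PAPPA, had 1481 and 1691 units in siPIR, 760.5 and 805 in siCTR and 679 and 664 in NO. No siPIR array overlapped a control array. The difference was 1.01 (0.87 to 1.15) against siCTR, just inside the rule, and 1.23 (1.12 to 1.34) against NO. Against siCTR it was 0.92 without siPIR replicate 2, 0.97 without siCTR replicate 1 and 0.996 at 4 times the pseudocount, which ended the call. IGFBP2, a binding protein often abundant in tumours, had 15328 and 15964 units in siPIR, 8396 and 9361 in siCTR and 8424 and 7364 in NO. Its siPIR arrays were also the highest, with differences of 0.82 (0.71 to 0.93) and 0.99 (0.86 to 1.12), just outside the rule. Without siPIR replicate 1 or NO replicate 1 the second was 1.02 and 1.09, and IGFBP2 was then called.

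IGFBP6, which prefers IGF2, had 653 and 578 units in siPIR, 460.5 and 510.2 in siCTR and 507 and 573 in NO. Its arrays did not overlap, but the lowest siPIR array stood only 0.01 above the highest NO array, and the differences were 0.34 and 0.19. IGFBP3, the main carrier of insulin-like growth factors in blood, went the other way, with 27058 and 27846 units in siPIR, 35200.2 and 36140 in siCTR and 32700.2 and 35039 in NO. Both siPIR arrays were below all controls, by -0.38 (-0.42 to -0.34) and -0.30 (-0.37 to -0.23), and its second probe set gave -0.51 and -0.33. For IGFBP7, a secreted protein with low affinity for insulin-like growth factors, the probe set used had 4082 and 4329 units in siPIR and 4910 to 5525.5 on the control arrays, and the next probe set had 4928 and 4850 in siPIR and 3741 to 4173 on the control arrays. The first gave -0.31 and -0.39 and the second 0.23 and 0.36, with no overlap of arrays in either, so the direction of IGFBP7 is not settled. Between siCTR and NO, the 6 genes differed by -0.15 (IGFBP6) to 0.22 (IGFBP4) on the probe sets used.

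**Figure D3:**
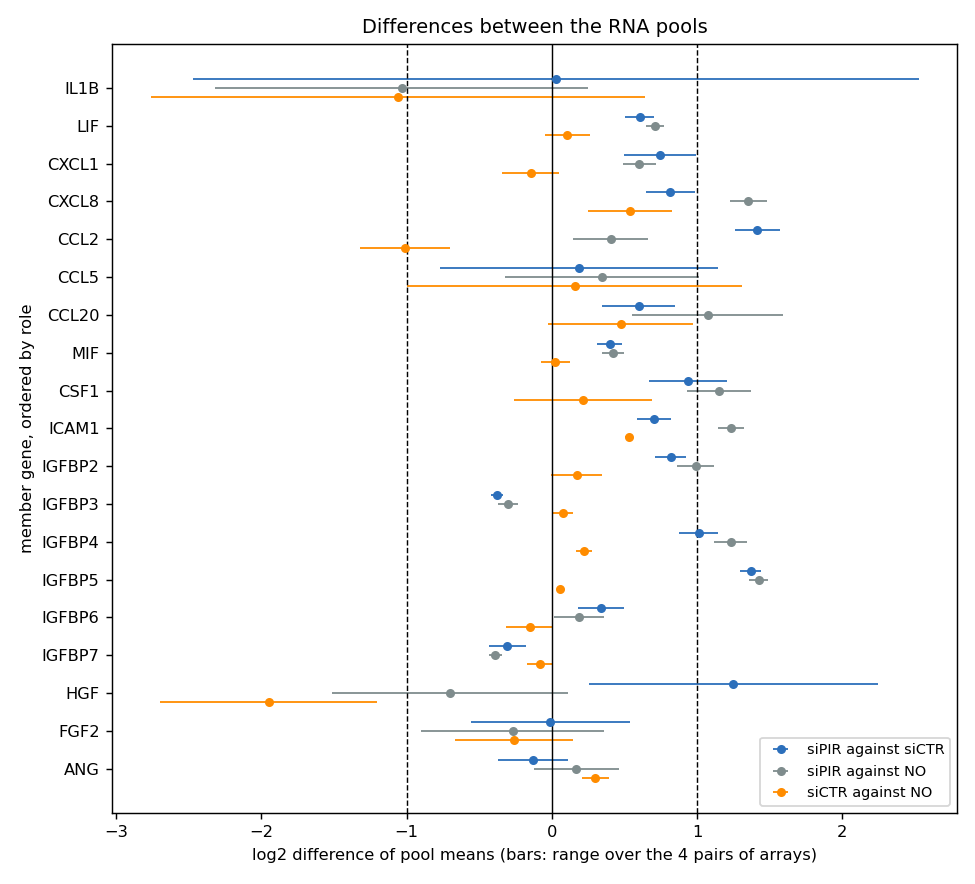
Log2 difference of pool means (horizontal axis) of the 19 genes above background in at least 1 pool, for siPIR against siCTR (blue), siPIR against NO (grey) and siCTR against NO (orange); bars span the 4 pairs of arrays and dashed lines mark a 2-fold difference. IGFBP5 and IGFBP4 lie past 2-fold higher against both controls, CCL2 and HGF against siCTR alone, and CXCL8, CCL20, CSF1 and ICAM1 against NO alone. IL1B lies past 2-fold lower in siPIR against NO. In siCTR against NO, IL1B, CCL2 and HGF lie past 2-fold lower. The arrays of IL1B overlap in every comparison.

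Among the chemokines, CXCL8, which draws neutrophils, had 2837 and 2854 units in siPIR, 1812 and 1438 in siCTR and 1021 and 1210.5 in NO. The pools followed each other without overlap, NO lowest and siPIR highest. The difference was 0.82 (0.65 to 0.99) against siCTR, 1.35 (1.23 to 1.48) against NO and 0.54 (0.25 to 0.82) between siCTR and NO. That probe set is marked as able to bind other transcripts (suffix _x_at), and the other one gave 0.71, 1.5 and 0.79, again without overlap. CXCL1, another ligand of CXCR2, had 504 and 450.2 units in siPIR, 317 and 251 in siCTR and 305 and 319 in NO. Both siPIR arrays were above all others while siCTR and NO overlapped, and the differences were 0.75 (0.50 to 0.99) and 0.60 (0.49 to 0.71).

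CCL20, which attracts cells bearing CCR6, had 357 and 432 units in siPIR, 238 and 279.5 in siCTR and 242 and 139.8 in NO. The siPIR arrays were highest and the NO arrays were uneven. The difference was 0.60 (0.35 to 0.85) against siCTR and 1.07 (0.55 to 1.59) against NO, and the latter fell short of 2-fold at 0.94 without siPIR replicate 2 and 0.69 without NO replicate 2. CCL2, which recruits monocytes, had 86.8 and 80.0 units in siPIR, 30.3 and 25.6 in siCTR and 71.9 and 52.8 in NO. Here siCTR was the low pool. CCL2 differed by 1.42 (1.26 to 1.57) between siPIR and siCTR, by 0.40 (0.14 to 0.66) between siPIR and NO, and by -1.01 (-1.32 to -0.71) between siCTR and NO. The last was -0.75 at 4 times the pseudocount, -0.88 after quantile normalization, and -0.91 and -0.81 without siCTR replicate 2 or NO replicate 1, and was then not called.

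CCL5, a T cell chemokine, had 58.5 and 83.0 units in siPIR, 103.6 and 34.7 in siCTR and 74.5 and 38.5 in NO, so all pools overlapped. MIF, a cytokine that many cell types make constantly, had 26995 and 25810.1 units in siPIR, 19280 and 20825 in siCTR and 19127 and 20289 in NO. The siPIR arrays of MIF were highest, with differences of 0.40 (0.31 to 0.49) and 0.42 (0.35 to 0.50), or 1.32-fold and 1.34-fold. CXCL2 and CXCL3, close relatives of CXCL1, had 1.8 to 50.9 and 5.9 to 36.2 units over the 6 arrays and no level above background.

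To set these values beside the upstream DNA, the 250 bases before the gene start were searched in RefSeq promoter sequences (GRCh38.p14), which 24 of the 33 genes matched by symbol. On either strand, the NF-kB consensus was found for 8 of the 24 genes (5.21% of all 35116 promoters), GGAANTTCC, which can overlap it, for 5 (0.826%) and the AP-1 motif TGANTCA for 4 (6.57%). The latter 2 motifs read the same on both strands. The windows below hold 100 bases with 60 before the first NF-kB type match. They are shown because CXCL1, CXCL8, CCL20 and ICAM1 were higher in siPIR than in NO on both arrays, while IL6, CXCL2 and CXCL3 hold matches and were near background. Capitals mark matches to any of the 3 motifs.
CXCL1 (chr4:73869254-73869353, plus strand): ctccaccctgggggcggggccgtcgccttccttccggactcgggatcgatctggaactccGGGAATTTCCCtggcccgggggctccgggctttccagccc
CXCL8 (chr4:73740418-73740517, plus strand): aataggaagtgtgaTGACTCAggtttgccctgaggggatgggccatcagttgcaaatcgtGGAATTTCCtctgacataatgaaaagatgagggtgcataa
CCL20 (chr2:227813703-227813802, plus strand): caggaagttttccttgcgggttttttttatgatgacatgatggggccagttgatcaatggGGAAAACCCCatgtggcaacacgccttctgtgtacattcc
ICAM1 (chr19:10270874-10270973, plus strand): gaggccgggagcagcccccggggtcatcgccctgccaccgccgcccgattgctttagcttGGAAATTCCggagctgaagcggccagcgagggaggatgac
IL6 (chr7:22727067-22727166, plus strand): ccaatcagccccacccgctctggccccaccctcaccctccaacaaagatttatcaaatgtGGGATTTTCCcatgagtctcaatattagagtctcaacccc
CXCL2 (chr4:74099234-74099333, minus strand): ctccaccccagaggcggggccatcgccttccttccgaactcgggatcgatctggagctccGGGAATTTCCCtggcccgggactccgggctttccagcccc
CXCL3 (chr4:74038729-74038828, minus strand): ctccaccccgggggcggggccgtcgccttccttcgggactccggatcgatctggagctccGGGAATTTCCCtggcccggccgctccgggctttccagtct
In CXCL1 the match ran from base -79 to -69 before the start, in CXCL8 from -91 to -83, in CCL20 from -79 to -70 on the opposite strand, and in ICAM1 from -186 to -178. CXCL8 also held an AP-1 match, at -137 to -131. Aligned at the match without gaps, the CXCL1 window shared 92 of 100 bases with that of CXCL3 and 83 with that of CXCL2, 2 genes that were near background, and 28 with that of CXCL8. IGFBP5 and IGFBP2 each held an NF-kB consensus match at -176 to -167, and the search found none of the 3 motifs for IGFBP4. IGFBP6, with small differences, also held an NF-kB consensus match, at -101 to -92. LIF, CSF1, CCL2, CCL5, IL7, IL15, IGFBP7, TNFRSF11B and MMP3 had no sequence matched by symbol and were not searched. These matches describe letters in these windows and are not measured sites.

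LIF, a cytokine of the IL6 family and the only member of the interleukin and TNF group above background in all pools, had 5059 and 5039 units in siPIR, 3546 and 3108 in siCTR and 2962 and 3214 in NO. Both siPIR arrays were above all controls, and the controls overlapped. The difference was 0.60 (0.51 to 0.70) against siCTR and 0.71 (0.65 to 0.77) against NO, or 1.52-fold and 1.64-fold. IL1B, a secreted inflammatory cytokine of the IL1 family, had 94.4 and 18.1 units in siPIR, 125.2 and 11.9 in siCTR and 78.5 and 112.0 in NO. Repeat arrays of IL1B differed more than pools did, and its difference from siCTR was 1.49 without siCTR replicate 1 and -1.43 without siCTR replicate 2. Both signs were past 2-fold, and its second probe set gave -1.38 against siCTR and -0.16 against NO, so no direction can be given.

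CSF1, the growth factor of macrophages, had 748 and 739 units in siPIR, 464 and 321 in siCTR and 285 and 385.5 in NO. The siPIR arrays were highest and the controls overlapped. The difference was 0.94 (0.67 to 1.20) against siCTR, just outside the rule, and 1.15 (0.93 to 1.37) against NO. It was called against siCTR without siCTR replicate 1 (1.20) and was not called against NO without NO replicate 1 (0.94). The 4 probe sets of CSF1 were all higher in siPIR but uneven. They spanned 0.28 to 2.77 against siCTR and 1.04 to 2.42 against NO. For the one at 0.28 the arrays of siPIR and siCTR overlapped. Those at 2.74 and 2.77 were above background in siPIR alone, where they were high, so their differences are not separate support. The mean over probe sets, which includes them, was 1.68 and 1.57.

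ICAM1, a membrane adhesion protein that is also shed and binds leukocyte integrins, had 7744 and 6844 units in siPIR, 4558 and 4381 in siCTR and 3089 and 3086 in NO. Like those of CXCL8, its 3 pools were ordered without overlap, NO lowest. The difference was 0.70 (0.59 to 0.82) against siCTR, 1.24 (1.15 to 1.33) against NO and 0.53 (0.50 to 0.56) between siCTR and NO. Its 3 probe sets spanned 0.70 to 1.08, 1.24 to 1.32 and 0.24 to 0.53 in the same order. TNFRSF11B (osteoprotegerin), a soluble decoy receptor, was near background at 1.2 to 35.4 units.

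**Figure D4:**
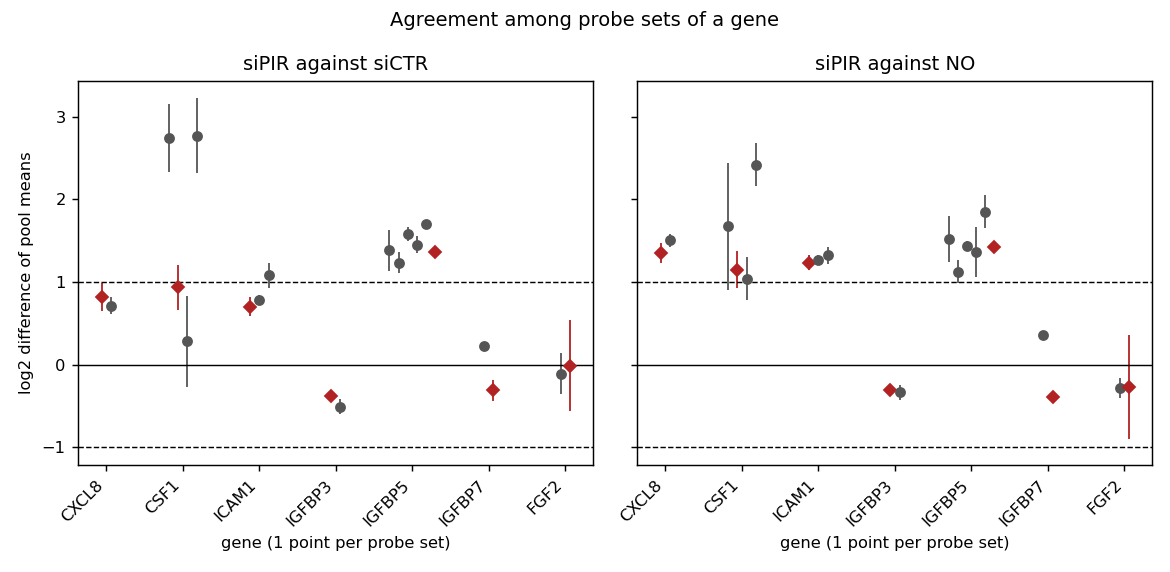
Log2 difference of pool means (vertical axis) for each probe set above background of the 7 genes that are above it in all pools and have more than 1 such probe set, in siPIR against siCTR (left) and against NO (right); red diamonds are the probe set used, grey circles the others, bars span the 4 pairs of arrays and dashed lines mark 2-fold. The 6 probe sets of IGFBP5 lie together, those of CSF1 span 0.28 to 2.77 against siCTR, and those of IGFBP7 lie on both sides of 0. The CSF1 probe set at 2.77 was above background in siPIR alone.

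Of the growth and angiogenic factors, HGF, the ligand of MET, had 67.2 and 29.4 units in siPIR, 9.9 and 23.8 in siCTR and 93.9 and 61.9 in NO. As for CCL2, siCTR was the low pool, and siPIR overlapped NO. HGF differed by 1.25 (0.25 to 2.25) between siPIR and siCTR, by -0.70 (-1.51 to 0.11) between siPIR and NO and by -1.95 (-2.70 to -1.20) between siCTR and NO. The calls rest on 1 dim probe set. The first was 0.72 without siPIR replicate 1, 0.78 without siCTR replicate 1 and 0.83 at 4 times the pseudocount, and the other 4 probe sets were near background.

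FGF2, a growth factor of melanocytes and endothelium, had 254 and 435 units in siPIR, 376 and 298.5 in siCTR and 338.5 and 478 in NO. All pools overlapped on this probe set. The second probe set of FGF2 gave -0.11 against siCTR with overlap, and -0.28 (-0.40 to -0.17) against NO without overlap. ANG (angiogenin), a secreted ribonuclease, had 626.5 and 460.5 units in siPIR, 581 and 596 in siCTR and 453 and 503 in NO. The siPIR arrays of ANG overlapped both controls, and siCTR lay above NO by 0.30 (0.20 to 0.39). EREG, a ligand of the EGF receptor, was near background, at 67.7 and 3.7 units in siPIR, 47.8 and 49.5 in siCTR and 4.5 and 7.3 in NO.

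The 12 genes near background had 1.2 to 97.8 units on single arrays. Against siCTR their differences ran from -1.15 (IL15) to 1.62 (TNF), and 10 of the 12 had overlapping arrays. Against NO they ran from -0.97 (CXCL3) to 1.30 (MMP3, a stromelysin), with 9 overlapping. Of all 19775 genes, 8945 had overlapping arrays against siCTR and 8241 against NO. For TNF the values were 15.8 and 59.7 units in siPIR, 7.8 and 5.6 in siCTR and 36.1 and 15.3 in NO, so the lowest siPIR array lay between the NO arrays. The highest array of IL6 was a NO array, at 97.8 units, and all its pools overlapped. IL11, a cytokine that signals through IL6ST, was near background on the probe set used, but its second probe set had 83.8 and 65.6 units in siPIR, 36.9 and 7.5 in siCTR and 17.6 and 7.4 in NO. That probe set, singled out after its values were seen, was above background in siPIR alone, where it was high. Its differences, 1.77 (0.75 to 2.79) and 2.21 (1.63 to 2.80), are therefore not separate support. The probe set used gave 1.23 and 1.18 with arrays that overlapped siCTR.

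The comparison of siCTR with NO shows what differed between the controls. CCL2 and HGF were called lower in siCTR and 0 genes higher, where 1.58% and 0.657% of all genes were. Both calls depend on the background rule: CCL2 was under 70.2 units in siCTR and in NO, and HGF passed through NO alone, where it was highest. With the rule set on the mean over the 6 arrays, 0 genes of the list were called lower, and 0.950% of all genes above background by that mean. The median over the 31 genes was 0.02, the difference was above 0 for 16 of 31 (49.7% of all genes), and the arrays of 19 overlapped. Of the rest, 8 were higher in siCTR and 4 lower (23.5% and 22.7% of all genes). Among the genes above background in all pools, CXCL8 (0.54) and ICAM1 (0.53) were higher in siCTR than in NO without overlap, and so were IGFBP4 (0.22), ANG (0.30), IGFBP3 (0.08) and IGFBP5 (0.06).

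Other genes of the same programme were read from 4 lists. Their counts above background stand beside 13053 of all 19775 genes. Of 34 receptors and binding partners with a probe set, 18 were above background, 1 was called higher against siCTR and 2 against NO, beside 2.42% and 2.38% of all genes, and 0 lower. PLXNB2, a receptor of ANG, was the one called against both, with 5713 and 5099 units in siPIR, 2714 and 2501 in siCTR and 1565 and 2020.1 in NO, or 1.05 (0.91 to 1.19) and 1.60 (1.33 to 1.86). IGF2R, which clears IGF2, was called against NO alone (1.01 against 0.46). CXCR1 and CXCR2, the receptors of CXCL8, were near background in every pool, as were LIFR and CCR6, while IL6ST, MET and IGF1R were above it in all. IGF2R and the receptors in the previous sentence were chosen after their values were seen.

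Of 39 other secreted or surface factors of senescence with a probe set, 26 were above background. Against each control 5 were called higher and 0 lower, and 4 were higher against both, beside 2.42%, 2.38% and 0.971% of all genes called higher. MMP1, an interstitial collagenase, had 5236 and 5508.5 units in siPIR and 1135 to 1428 on the control arrays. PLAUR, the urokinase receptor, had 3046 and 3043 units in siPIR and 800.3 to 1265 on the control arrays. MMP14, a membrane protease, had 7010 and 7524 units in siPIR and 2785 to 3556 on the control arrays. STC1, a secreted glycoprotein, was dim, with 162.7 and 243.0 units in siPIR, 5.1 and 43.9 in siCTR and 42.6 and 76.3 in NO. Only the siPIR pool mean of STC1 was above 70.2 units, so it could be counted only because it was high there. That the siPIR arrays of all 4 were above every control array follows from the rule for a call. WNT2, named after its values were seen, was called higher against siCTR and not against NO. Its pool means were 90.7 units in siPIR, 36.6 in siCTR and 52.3 in NO. Like STC1, it could be counted only because it was high in siPIR. Over the 39 genes the median was 0.14 against siCTR and 0.18 against NO.

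All 27 upstream regulators with a probe set were above background. Of these, 1 was called higher and 1 lower against siCTR, and 0 higher and 1 lower against NO. The shares of all genes were 2.42% higher and 2.78% lower against siCTR and 2.38% and 3.57% against NO. The lower one was in both cases HMGB2, a chromatin protein, with 3155 and 3595 units in siPIR, 11717 and 11771 in siCTR and 9915 and 9469 in NO. The higher one, TLR2, a receptor of microbial lipoproteins named after its values were seen, was dim and lowest in siCTR (7.7 and 64.5 units, against 78.4 and 108.1 in siPIR and 136.9 and 121.4 in NO). The list's medians were 0.15 and 0.21. Transfected RNA can itself set off an interferon and cytokine response, so 22 interferon response genes were read as well. Between siCTR and NO 0 of them were called in either direction, beside 0.657% higher and 1.58% lower of all genes. With 22 genes, 0 calls cannot be told apart from these shares. The list's median was -0.24, and IFNB1 (1.2 to 8.1 units) was near background. Between siPIR and siCTR 3 were called higher and 0 lower, beside 2.42% and 2.78% of all genes. Between siPIR and NO 1 was called higher and 1 lower, beside 2.38% and 3.57%. The list's median difference was 0.44 in the first of these comparisons and 0.32 in the other. OAS2, an antiviral enzyme, was called higher against both controls, with 193.5 and 299.4 units in siPIR, 102.9 and 111.2 in siCTR and 115.5 and 95.8 in NO, or 1.13 and 1.15. Their summed signal was 11180.0 to 11257 units in siPIR, 8074 to 8099 in siCTR and 8712 to 8781 in NO, and the part of this in the chemokine values was not tested.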

How the data were processed

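The authors deposited a linear intensity for each probe set, made with GCOS, the Affymetrix array software, per the submitters' processing notes, which as used here name no version or settings. Without the lowest and highest 2% of values, the arrays averaged 500, which is what scaling each array to one target would give and which would hide a change in total RNA per cell. No detection calls were used.

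The platform annotation used lists 1 gene for 41097 of the 54675 probe sets, several for 1801 and none for 11777. Symbols were brought up to date by Entrez identifier (99.9% matched) from RefSeq genes of GRCh38.p14. A gene's brightest probe set, by mean log2 signal, stood for it. The pseudocount of 5.4 is the 10th percentile of all values, and the background of 70.2 is their median. Repeat arrays were averaged on the log2 scale, so each group has n = 1, and no test across conditions was made.

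The members and gene lists were chosen with earlier results of these data known. Array values are given for each member above background in at least 1 pool and, for some with the control arrays as a range, for genes of the other lists called against both controls, at most 6 a list. Alternatives were other pseudocounts, quantile normalization, other probe set rules, other filters and thresholds, and each array left out. A filter on the mean over the 6 arrays was added after seeing the data. Python 3.11.15, numpy 2.4.6 and pandas 2.3.3 were used.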

Additional observations from a re-analysis of the deposited data

How the results depend on the processing

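Counts of called genes moved by more than 1.5 times under these settings. Values over all genes are given beside some counts. Without them, a count does not show whether the list alone moved. At 4 times the pseudocount, 2 genes were called higher against siCTR, 1 higher against both controls and 1 lower between siCTR and NO. Over all genes, 362 were then called higher against siCTR, and 478 in the main setting. With the filter at the 75th percentile of all values, 2 were higher against siCTR and 0 lower between siCTR and NO. At 1.5-fold, 11 were higher against siCTR and 9 against both controls (7.02% and 4.14% of all genes). With no filter on low values, 1 was lower against siCTR (IL15) and 1 higher between siCTR and NO (EREG). With the filter on the mean over the 6 arrays, chosen after seeing the data, 2 were higher against siCTR and 0 lower between siCTR and NO. The shares of the 12111 genes above background by that mean were 2.50% and 0.950%. By fold alone, 1 was lower against NO (IL1B). Between siCTR and NO, 1 was lower after quantile normalization, 1 with the mean over probe sets and 0 without _x_at and _s_at probe sets. The last setting left 23 of the 31 genes, without CXCL8, CCL2, ICAM1, MIF, IGFBP3, FGF2, TNF and IL15. CCL2, called lower between siCTR and NO in the main setting, was thus not read there. HGF then gave 0.072 between siCTR and NO, a reversed sign on another probe set.

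With each array left out, which loosens the rule on arrays, the counts were 3 to 4 higher and 0 to 1 lower against siCTR, 5 to 8 higher and 0 to 2 lower against NO, 0 higher and 1 to 3 lower between siCTR and NO, and 2 to 3 higher and 0 lower against both controls. Counts over all genes with an array left out are not given here. The lower calls against siCTR and NO were IL1B and, without siPIR replicate 1, HGF. The median difference ranged from 0.37 to 0.72 against siCTR, from 0.24 to 0.45 against NO and from -0.06 to 0.09 between siCTR and NO. It was 0.60 against siCTR with a pseudocount of 1 and 0.66 against NO without _x_at and _s_at probe sets. The number near background was 12, from 11 to 12 with an array left out, and 0 with the limit at the 25th percentile. The other 146 counts and medians stayed within 1.5 times or within the spread over array pairs. The cause of these changes was not tested, beyond the fewer genes or arrays a setting leaves. No paired analysis was possible because the replicate numbers mark repeat arrays of 1 pool and no result comes from a test. Signals near background, 1 pool per group and 2 arrays per pool limit what can be told apart.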
